A study of Caenorhabditis elegans with 12 samples.

Results

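The *abu* and *pqn* genes of *C. elegans* encode proteins rich in glutamine and asparagine, and their transcripts were followed in embryos in which the muscle regulator HLH-1 had been induced. They were chosen by name: every probe set for which each gene symbol in the array annotation starts with abu- or pqn- is a member, and no signal threshold was used. This gave 102 of the 22548 probe sets that are not controls, and these stand for 69 of the 18217 genes named in the annotation, 15 *abu* and 54 *pqn*. A total of 93 probe sets are annotated to 1 gene and 9 to several. By the ending of their names, 34 probe sets (_s_at) are shared between transcripts and 20 (_x_at) hold probes that also match other sequences, so close paralogs read by these 54 cannot be told apart. The family was proposed with results of these same arrays known, so the values that follow are a description of its members, and no independent support is drawn from them.

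The arrays came from early embryos of strain KM267, which carries *hlh-1*, the *C. elegans* MyoD-related gene, under heat shock control. Each of the 12 samples held about 80 embryos, with 3 independent samples (A, B and C) at each of 4 time points. The 0 h samples were taken ahead of any heat treatment, while the later ones waited 60 min, had a pulse of 34 °C for 30 min, and were collected 2, 4 or 6 h after it. All groups share the transgene, and embryos that had the pulse but lack the transgene were not analysed here. In any comparison with 0 h the action of HLH-1, of heat and of age therefore cannot be told apart. Between 2, 4 and 6 h all embryos had the pulse, and only the time after it differs by design. Whole embryos were measured, so that a change in the number of cells that express a gene and a change in RNA per cell cannot be told apart.

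As background, abu stands for activated in blocked unfolded protein response. These genes were first picked out in worms in which the endoplasmic reticulum could not mount its usual response to misfolded proteins. Their products are predicted to enter the secretory pathway, and several *abu* and *pqn* paralogs, *abu-14* among them, are known as prion-like parts of the cuticle that lines the pharynx. The name pqn marks a prion-like domain rich in glutamine and asparagine and nothing else, so the *pqn* genes are a mixed set. Among them are *pqn-41*, which acts in the death of the linker cell in males, and *pqn-59*, a relative of the vertebrate RNA-binding protein gene UBAP2L.

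The measurements are linear MAS5 signals, which the authors had set to the same trimmed mean on every array, 500.2 to 500.3. Probe sets with a signal above 69.7, a reference level equal to the median of the 12 arrays' 40th percentiles, on at least 3 arrays were tested. These were 18264 probe sets, 94 members among them. A call is an adjusted p under 0.05 in limma, fitted to log2 signals of all 12 arrays with p values adjusted over all tested probe sets, and a fold of at least 1.7. Folds were taken from mean log2 signals. If the dimmer or the brighter group had an array that did not exceed 69.7, weaker signals of the dimmer group were raised to that level first, and the fold is written as "at least". Probe sets differ in brightness for reasons of their own, so signals are set side by side between arrays and not between genes. The median SD of log2 signal between replicates was 0.35 to 0.59 for members and 0.47 to 0.55 for all tested probe sets.

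The main event was a sharp rise at 2 h. Of the 94 tested members, 44 were higher at 2 h than at 0 h and 4 were lower, while 15.5% of all tested probe sets were called higher and 9.55% lower. The 44 probe sets read 39 genes. For 43 of the 44 the 2 h arrays did not overlap the 0 h arrays. That separation was not counted over all tested probe sets and adds nothing to the calls. The median log2 change was 0.84 over the members and 0.11 over all tested probe sets. The 39 genes were 14 *abu* and 25 *pqn* genes. All 14 *abu* genes with a tested probe set had at least 1 that was called higher, and none had 1 that was called lower. That does not show a rise of each gene, since *abu-1*, *abu-5*, *abu-7* and *abu-9* were read only together with other genes. *abu-4* was called at 1 of its 3 probe sets, and the call of *abu-2* was lost when some single arrays were left out. Over the 20 tested probe sets that read an *abu* gene, 18 were called and the median log2 change was 5.11. The 74 that read *pqn* genes alone were mixed, with 26 higher, 4 lower and a median of 0.25. On all 3 arrays at 2 h, 31 members, or 33% of those tested, had more signal than on any of the other 9 arrays, against 6.72% of all tested probe sets. Their mean signals had a median of 3984 at 2 h, against 110.2 at 0 h.

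**Figure D1:**
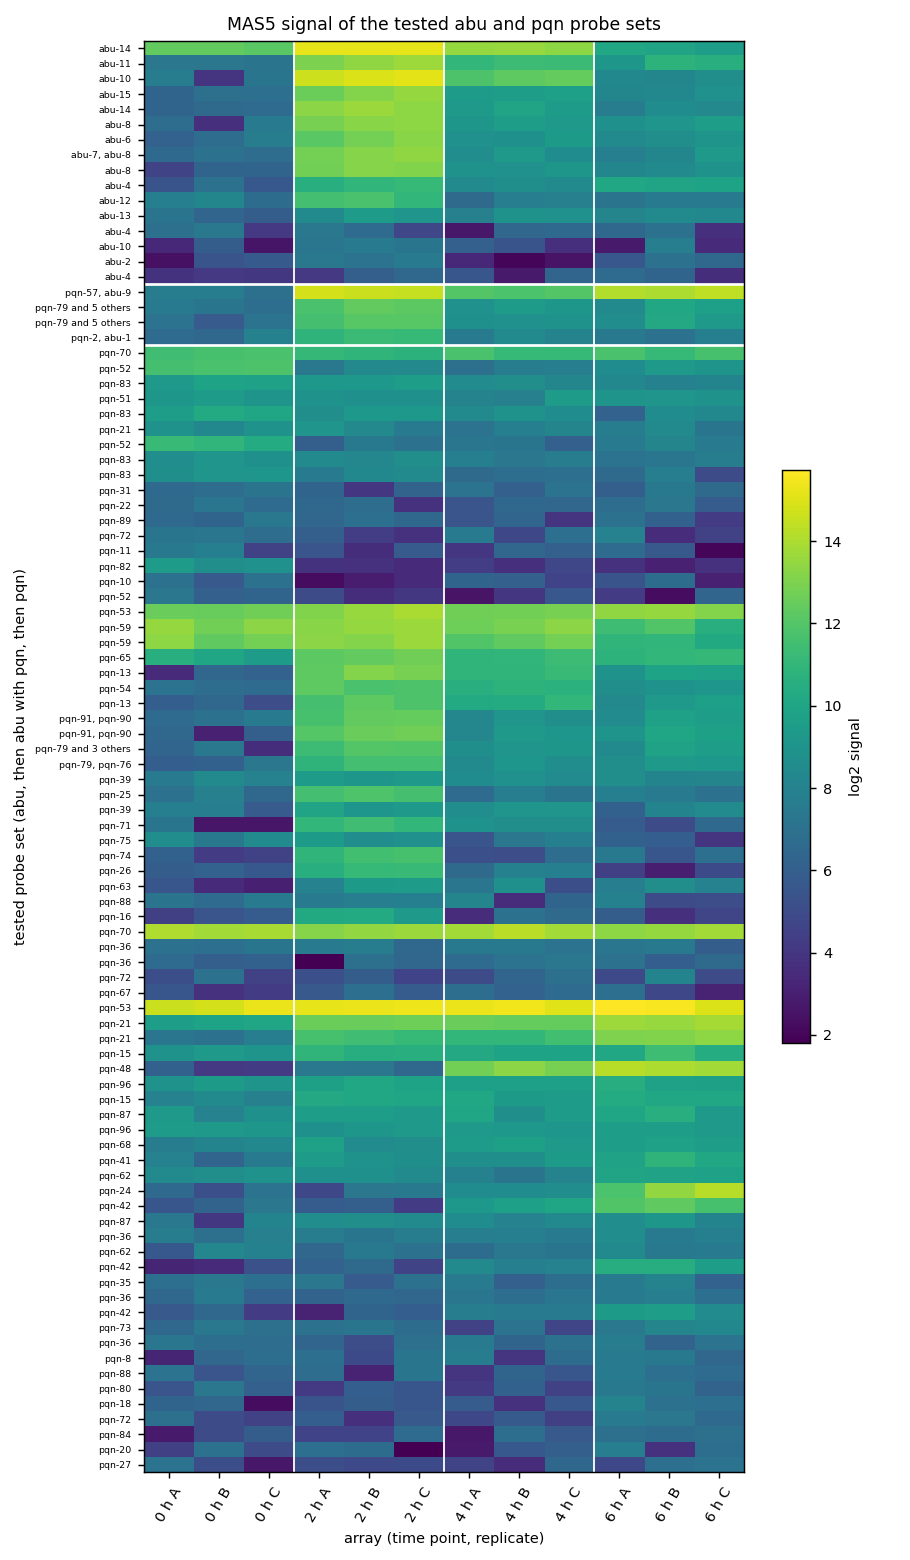
Log2 MAS5 signal of the 94 tested members (rows) on the 12 arrays (columns, 0 h to 6 h), with white lines between time points and between probe sets of *abu* genes, of *abu* and *pqn* genes, and of *pqn* genes alone. In each class rows run from those with the highest mean at 0 h to those with the highest mean at 6 h. The mean was highest at 2 h for 41 members (43.6%, beside 22.1% of all tested probe sets) and at 6 h for 31 (33%, beside 34.9%).

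*abu-10* had the largest rise of all members at 2 h. At probe set 179983_at its signals were 204, 14.8 and 151 at 0 h, 25856, 32842 and 35753 at 2 h, 3701, 5009 and 5436 at 4 h and 317, 298 and 415 at 6 h. All 3 arrays at 2 h lay far above every other array, and the 0 h arrays included 1 very dim value, in sample B. The rise was at least 242-fold (log2 change 8.66, standard error 0.84, adjusted p = 6e-05). By 4 h the gene was still at least 36-fold higher than at 0 h, and from 4 to 6 h it was 13.7-fold lower (log2 change -3.78, standard error 0.84, adjusted p = 0.014). Its 6 h arrays all lay above the 0 h arrays, with a log2 change of 2.14 (adjusted p = 0.078) that was not called. A further *abu-10* probe set, 188148_at, was dim, with 157, 178 and 149 at 2 h and 10.2, 60.9 and 6.1 at 0 h, and its call at 2 h ended when any of 7 arrays was left out.

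*abu-14*, a component of the pharyngeal cuticle, was read at a pair of probe sets that both peaked at 2 h but started and ended apart. At 174071_at the signals were 5287, 5358 and 4661 at 0 h, 37883, 37254 and 37499.9 at 2 h, 11591, 12389.9 and 10432 at 4 h and 1142, 991 and 775 at 6 h. At 183577_at they were 79, 98.1 and 102 at 0 h, 10081, 12787 and 10357 at 2 h, 647, 985 and 709 at 4 h and 206, 388 and 331 at 6 h. The transcript was thus already bright at 0 h by the first probe set and close to the reference level by the other. At 2 h it was 7.37-fold higher by 174071_at and 119-fold higher by 183577_at. At 6 h the calls were opposite, since 174071_at was 5.32-fold lower than at 0 h (log2 change -2.41, standard error 0.18, adjusted p = 4.6e-10) and 183577_at was 3.22-fold higher (log2 change 1.69, standard error 0.27, adjusted p = 2.7e-05). Against 2 h they moved together at 6 h, 39.2-fold lower and 37-fold lower. This was the only member gene with opposite calls at probe sets of its own in any of the 6 comparisons.

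The paralogs *abu-6*, *abu-7*, *abu-8* and *abu-15* and the related *abu-11* had a shared course. The annotation places *abu-15*, *abu-6* and *abu-7* as near neighbours on chromosome V, and all their probe sets carry endings that allow cross-hybridization. *abu-8* at 194211_x_at had 25.3, 78.8 and 78.1 at 0 h, 6957, 9466 and 8547 at 2 h, 500.4, 454 and 581 at 4 h and 298, 359 and 504 at 6 h. *abu-15* at 172360_x_at had 77.6, 123 and 119 at 0 h, 6234, 9163 and 11848 at 2 h, 721, 752 and 819 at 4 h and 297, 313 and 456 at 6 h. *abu-6* at 172323_x_at had 72.4, 112 and 211 at 0 h, 4578, 7118 and 9676 at 2 h, 455, 444 and 666 at 4 h and 341, 408 and 515 at 6 h. In all of these the 2 h arrays stood apart from the rest by a wide margin, and the 4 and 6 h arrays stayed above 0 h. At 2 h *abu-8* was at least 109-fold higher, *abu-15* 84.2-fold, *abu-6* 56.9-fold and the probe set shared by *abu-7* and *abu-8* 82.8-fold. The second *abu-8* probe set, 172587_x_at, gave at least 82.6-fold. At 4 h against 2 h these 5 probe sets were 11.5-fold to 19.7-fold lower.

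*abu-11* kept more of its signal. It had 162, 162 and 146 at 0 h, 8123, 10733 and 13089 at 2 h, 2072, 2635 and 2512 at 4 h and 574, 1788 and 1542 at 6 h. At 2 h it was 66.7-fold higher than at 0 h (log2 change 6.06, standard error 0.32, adjusted p = 6.6e-11), at 4 h 15.3-fold and at 6 h 7.44-fold. The dimmest 6 h array was sample A. Its decline from 4 to 6 h, 2.05-fold, was no longer called without 4 h B, 4 h C or 6 h A.

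For *abu-12* and the probe set shared by *abu-1* and *pqn-2* the rise was called at 2 h and at no later time against 0 h. *abu-12* had 225, 298 and 104.1 at 0 h, 3023, 3351 and 2106 at 2 h, 97.4, 219 and 237 at 4 h and 146, 187 and 179 at 6 h. It was 14.5-fold higher at 2 h, and its log2 change at 6 h against 0 h was -0.17 (adjusted p = 0.78). The *abu-1* and *pqn-2* probe set had 101, 89.1 and 244 at 0 h, 1871, 2549 and 2212 at 2 h, 181, 342 and 260.5 at 4 h and 171, 132 and 228 at 6 h. Its signal was 16.9-fold higher at 2 h and 8.68-fold lower at 4 h than at 2 h. The genes *abu-1* and *pqn-2* are near neighbours on chromosome V.

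At *abu-9* and *abu-4*, and at the dim *abu-2* described next, a renewed rise from 4 to 6 h was called. The probe set shared by *abu-9* and *pqn-57*, which are near neighbours on chromosome X, had 199, 209.8 and 122 at 0 h, 29336, 24837 and 23575 at 2 h, 4064, 3488 and 4147 at 4 h and 17962, 16530.3 and 21817 at 6 h. The 4 h arrays all lay below the 6 h arrays, and these in turn below the 2 h arrays. The transcript was 150-fold higher at 2 h (log2 change 7.23, standard error 0.21, adjusted p = 6.9e-16), 6.64-fold lower at 4 h than at 2 h, and 4.79-fold higher at 6 h than at 4 h (log2 change 2.26, standard error 0.21, adjusted p = 8.5e-08). *abu-4* at 172056_x_at had 42.8, 131 and 49.8 at 0 h, 1485, 2034 and 2275 at 2 h, 349, 429.9 and 339 at 4 h and 1091, 988 and 943 at 6 h. Expression was at least 22.1-fold higher at 2 h and 2.71-fold higher at 6 h than at 4 h. The other *abu-4* probe sets, 187887_at and 187888_s_at, stayed near the reference level and had no call in any comparison.

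*abu-13* and *abu-2* had smaller rises at 2 h. *abu-13* had 142, 80.1 and 60.7 at 0 h, 354, 729 and 526 at 2 h, 237, 479 and 462 at 4 h and 281, 359 and 316 at 6 h. It was at least 5.55-fold higher at 2 h (log2 change 2.54, standard error 0.41, adjusted p = 6e-05) and still at least 3.42-fold higher at 6 h than at 0 h, with no call between 2, 4 and 6 h. *abu-2* had 5.3, 42.7 and 53.6 at 0 h, 168, 139 and 179 at 2 h, 10.4, 4 and 5.9 at 4 h and 48.1, 131 and 88.9 at 6 h. Its call at 2 h (at least 2.31-fold, adjusted p = 0.044) ended without any of 6 arrays, and it lay far below the reference level at 4 h. It was called lower at 4 h than at 2 h (log2 change -4.68, adjusted p = 0.0024) and higher at 6 h than at 4 h (log2 change 3.72, adjusted p = 0.012), and the second of these calls was lost without 6 h B and with signals raised to the reference level. *abu-5* was read only together with 5 *pqn* genes, at 172552_x_at and 172605_x_at, which were at least 35.5-fold and 30.7-fold higher at 2 h. *abu-3* was not tested, as only 2 h B and 6 h C lay above 69.7.

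**Figure D2:**
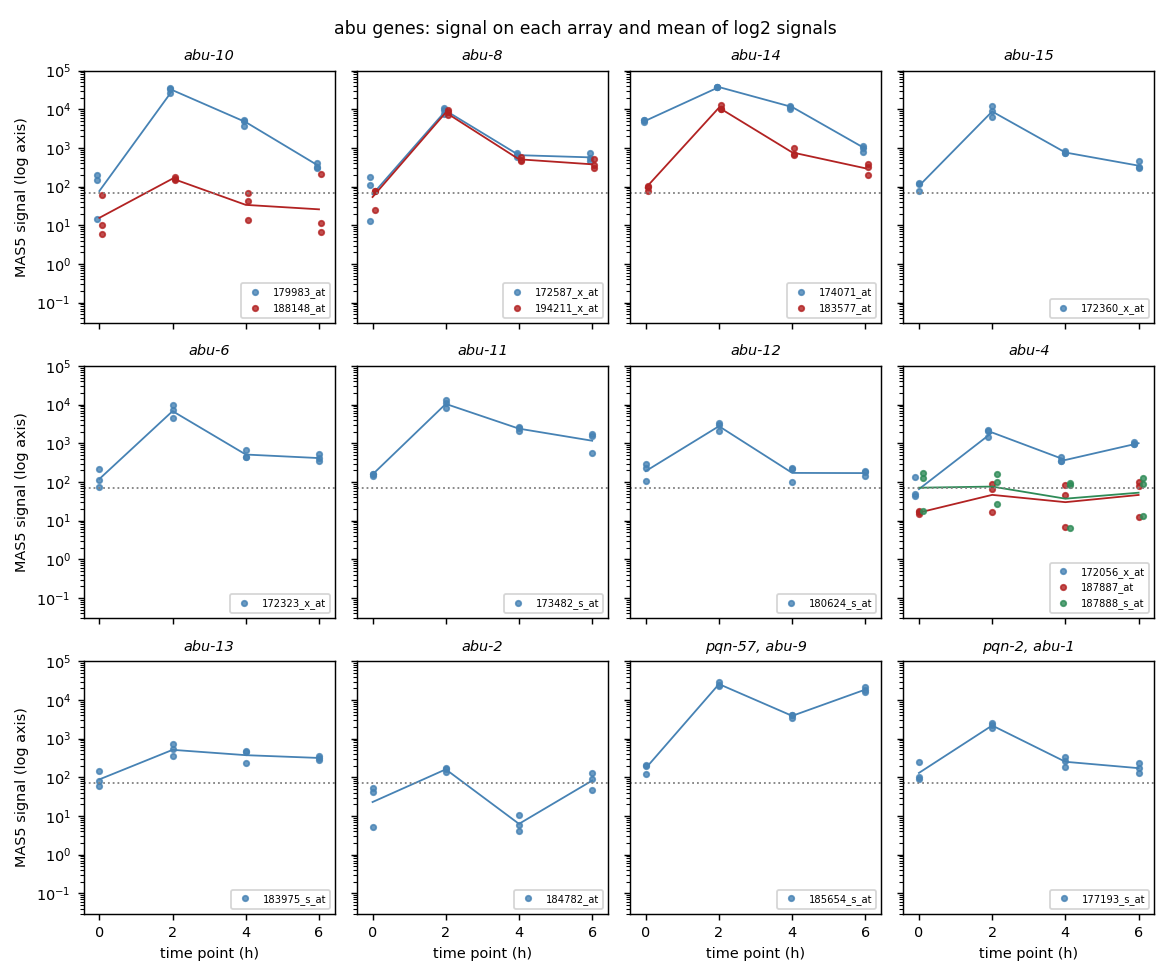
MAS5 signal (log axis) at 0, 2, 4 and 6 h for tested probe sets that read 1 *abu* gene, alone or with 1 *pqn* gene, with a point for each array, a line through means taken on the log2 scale, a colour for each probe set and a dotted line at the reference level of 69.7. Every line is highest at 2 h, though only by little for the dim *abu-4* probe sets, and lines turn up again at 6 h for *abu-9* with *pqn-57*, for *abu-4* and for *abu-2*.

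Many *pqn* genes shared this peak. On chromosome IV *pqn-76*, *abu-5*, *pqn-78* and *pqn-79* form a run of neighbours, and so do *pqn-90* and *pqn-91*, and 6 probe sets read these genes in various combinations. The probe set 172443_x_at of *pqn-90* and *pqn-91* had 91.3, 8.6 and 64 at 0 h, 4239, 5988 and 6606 at 2 h, 302, 637 and 555 at 4 h and 514, 1036 and 852 at 6 h. Its signal was at least 72.3-fold higher at 2 h (log2 change 7.22, standard error 0.76, adjusted p = 5.2e-05), and the other 5 were at least 27.8-fold to at least 35.7-fold higher. All 6 were still called higher at 6 h, by 4.68-fold to at least 10.1-fold. In the RefSeq annotation 67 of the 69 genes were found, and 13 of them lie in 5 such runs of neighbours with at most 1 other gene between. The 10 probe sets that read these genes alone were all called higher at 2 h, beside 15.5% of all tested probe sets. In all 10 every 2 h array lay above the other 9 arrays, beside 6.72%. They are not 10 separate readings, since the 6 on chromosome IV read overlapping sets of genes. *abu-10*, *abu-11* and *abu-14*, which lie outside such runs, rose as well.

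*pqn-13* and *pqn-54* rose at 2 h and were still higher than 0 h at 6 h. *pqn-13* at 174178_at had 10.9, 83.1 and 73.5 at 0 h, 4956, 8972 and 7471 at 2 h, 1957, 1908 and 2432 at 4 h and 501, 945 and 866 at 6 h. The transcript was at least 92.1-fold higher at 2 h and at least 9.87-fold higher at 6 h than at 0 h, and its other probe set, 185795_at, gave at least 50.6-fold and at least 7.24-fold. At 4 h against 2 h the log2 change was -1.73 (adjusted p = 0.13) at 174178_at, which was not called, and -1.35 (adjusted p = 0.012) at 185795_at, a call that was lost without 2 h B, 4 h A or 4 h B. At 6 h against 4 h it was -1.49 (adjusted p = 0.19) at 174178_at, again not called, and -1.45 (adjusted p = 0.0063) at 185795_at. *pqn-54* had 138, 111 and 101 at 0 h, 4910.3, 3402 and 3634 at 2 h, 1483, 1810.3 and 1640.4 at 4 h and 411, 502 and 564 at 6 h. No arrays of different time points overlapped. Expression was 34-fold higher at 2 h (log2 change 5.09, standard error 0.24, adjusted p = 1.1e-12), 14.2-fold at 4 h and 4.23-fold at 6 h, and its falls from 2 to 4 h (2.4-fold) and from 4 to 6 h (3.36-fold) were both called.

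In contrast, *pqn-74*, *pqn-25*, *pqn-26*, *pqn-71* and *pqn-16* were high at 2 h and were not called higher than 0 h at 6 h. *pqn-74* had 70.7, 19.4 and 23.8 at 0 h, 1951, 2895 and 3228 at 2 h, 36.7, 34.2 and 109 at 4 h and 174, 45.5 and 120.3 at 6 h. It was at least 37.6-fold higher at 2 h and at least 32.5-fold lower at 4 h than at 2 h. *pqn-25* had 126, 237 and 86.5 at 0 h, 2997, 3759.8 and 3157 at 2 h, 101, 215 and 145 at 4 h and 228, 178 and 131 at 6 h, 24-fold higher at 2 h. Its arrays at 0, 4 and 6 h overlapped throughout. *pqn-26* had 60.7, 71.4 and 49.3 at 0 h, 1518, 2281 and 2317 at 2 h, 96.9, 244 and 226 at 4 h and 21.6, 7.8 and 30.2 at 6 h. Its signal was at least 28.5-fold higher at 2 h and ended below the reference level on all 3 arrays, where its call as lower than at 0 h carries no fold and was lost without 0 h B or 6 h B. At 2 h *pqn-71* was at least 25.6-fold higher and *pqn-16* at least 14.4-fold. Smaller rises at 2 h were seen for *pqn-65* (5.42-fold), *pqn-15* (2.91- and 3.98-fold) and *pqn-39* (2.49-fold and at least 4.7-fold). *pqn-15* was not called lower at 4 or 6 h than at 2 h, and at 6 h it was 2.91- and 4.28-fold higher than at 0 h.

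From 2 to 4 h most of these transcripts fell. At 4 h against 2 h, 30 members were lower and 4 higher, while 7.35% of all tested probe sets were called lower and 6.9% higher. Of the 20 tested probe sets that read an *abu* gene, 15 were lower and none higher, at a median log2 change of -3. Against 0 h, 35 members were higher and 8 lower at 4 h, beside 17.1% and 11.9% of all tested probe sets, and 37 were higher and 12 lower at 6 h, beside 21.7% and 15.6%. From 4 to 6 h, 12 members were higher and 10 lower, beside 7.73% and 8.39%, and at 6 h against 2 h, 10 were higher and 35 lower, beside 14.3% and 14.5%. On all 3 arrays at 6 h, 11 members had more signal than on the other 9 arrays, 11.7% of those tested, beside 11.5% of all tested probe sets. Median signals were 112 to 141 on the 6 h arrays and 89.6 to 112 on the others. With all arrays scaled to the same median, the median log2 change of all tested probe sets at 6 h against 0 h moved to -0.05, beside 0.31 as deposited. Calls over all tested probe sets then numbered 3071 higher and 3540 lower, beside 3964 and 2858. They numbered 1023 higher and 2294 lower at 6 h against 4 h, beside 1412 and 1532, and 1894 higher and 3620 lower at 6 h against 2 h, beside 2610 and 2646. Members called under that scaling were 32 higher and 13 lower at 6 h against 0 h and 6 higher and 37 lower at 6 h against 2 h. At 6 h against 4 h they were 10 higher and 11 lower, so the balance of 12 higher and 10 lower turned there.

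**Figure D3:**
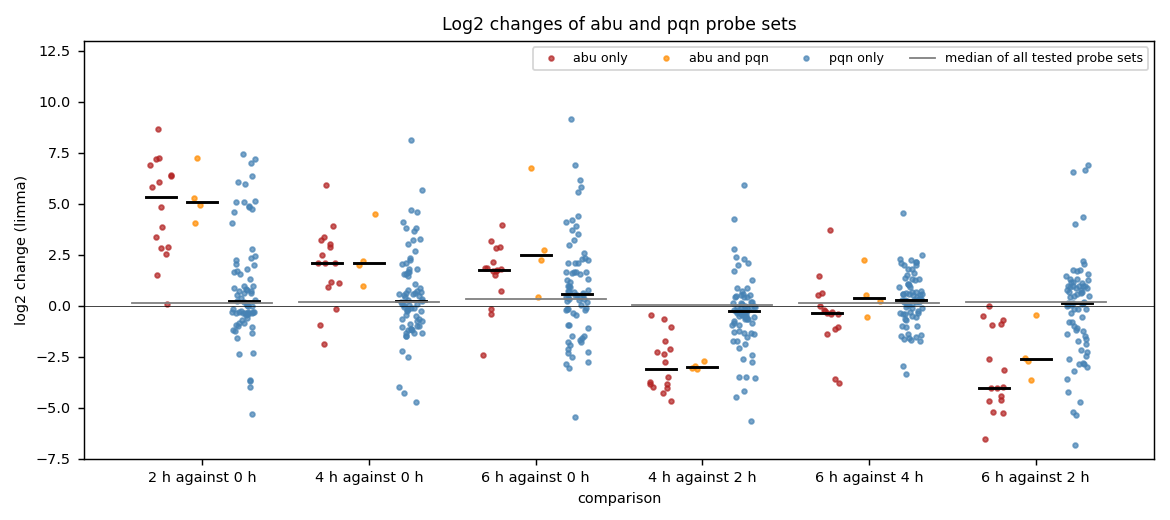
Log2 change from limma for tested probe sets of *abu* genes (16), of *abu* and *pqn* genes (4) and of *pqn* genes alone (74) in the 6 comparisons, with a point for each probe set, a black bar at the median of each class and a grey line at the median of every tested probe set. The *abu* probe sets lie high at 2 h against 0 h (median 5.35) and low at 4 h against 2 h (median -3.13), while the medians of the *pqn* probe sets stay near those of all tested probe sets.

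A few *pqn* genes followed a different course and became bright late. *pqn-48* had 70.8, 17.2 and 19.7 at 0 h, 165, 163 and 90.9 at 2 h, 6961, 10072 and 7429 at 4 h and 19369.9, 16245 and 13951 at 6 h. Its arrays at 4 and 6 h were all above those at 2 h, and the 6 h arrays were all above the 4 h arrays. The transcript was at least 115-fold higher at 4 h (log2 change 8.12, standard error 0.43, adjusted p = 1.7e-09) and at least 234-fold at 6 h (log2 change 9.15, standard error 0.43, adjusted p = 2.5e-10), the largest rise of any member at these times. At 2 h it was at least 1.92-fold higher. From 2 to 4 h it was 59.7-fold higher.

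*pqn-24*, from which the study built a promoter reporter, had 95.3, 36.2 and 139.7 at 0 h, 28.4, 158 and 174 at 2 h, 386, 387 and 402 at 4 h and 3573, 11325 and 19389.9 at 6 h. Its 6 h arrays lay above all others but spread widely, with sample A the dimmest. Expression was at least 94.6-fold higher at 6 h (log2 change 6.88, standard error 0.81, adjusted p = 5.4e-05), a bound that was 65.2- to 152-fold with each array left out in turn and moved by over 1.5 times without 6 h A. At 6 h it was 23.6-fold higher than at 4 h, and its log2 change at 4 h against 0 h was 2.32 (adjusted p = 0.056).

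*pqn-42*, on chromosome II, was the other member with a promoter reporter in the study. The nested forward primers used to amplify its upstream region are given here because they mark the promoter that was chosen for this late gene, and they are printed 5′ to 3′ in lower case as designed, with no part marked.
Forward primer A: catactcgtgatctcgccaag
Forward primer A2: attttttccggttttttgaaaaaa
The 3 probe sets of *pqn-42* all rose by 6 h. At 175352_s_at the signals were 46.8, 76.5 and 159.8 at 0 h, 59, 64.2 and 19.4 at 2 h, 599, 820.2 and 1073 at 4 h and 3935, 5036 and 3223 at 6 h. At 180877_s_at they were 9.6, 11.1 and 38.7 at 0 h, 71.8, 98.9 and 25.1 at 2 h, 357, 228 and 255 at 4 h and 1404, 1449 and 770.2 at 6 h. The arrays at 4 and 6 h lay above all earlier arrays at these probe sets and at 180033_at. At 6 h against 0 h the gene was at least 42.2-fold, at least 16.7-fold and at least 7.52-fold higher. At 4 h against 0 h it was at least 8.52-fold, at least 3.95-fold and at least 2.46-fold higher, where the call at 180033_at ended without any of 8 arrays. A call at 2 h at 180877_s_at overlapped 0 h and carries no fold.

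*pqn-21* rose in 2 stages. At 175749_s_at it had 776, 927 and 1003 at 0 h, 6081, 5939 and 6428 at 2 h, 6017, 5621 and 5506 at 4 h and 13136, 12389 and 14992 at 6 h. At 180729_s_at it had 153, 134 and 213 at 0 h, 3294, 2858 and 2200.1 at 2 h, 2056, 2069 and 2903 at 4 h and 8401, 8689 and 10664 at 6 h. Signals at 2 and 4 h overlapped, and those at 0 and 6 h lay clear on either side. At these probe sets it was 6.85-fold and 16.8-fold higher at 2 h, and 15-fold and 56.4-fold at 6 h. Another probe set, 180036_s_at, was not called, with a log2 change of -0.94 (adjusted p = 0.092) at 6 h against 0 h. With arrays scaled to the same median or quantile normalized, it was called lower.

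*pqn-41*, the linker cell death gene, was tested at 182603_at alone, with 252, 80.4 and 196 at 0 h, 703, 474 and 427 at 2 h, 433, 424 and 671 at 4 h and 898, 1827 and 1154 at 6 h. It was 3.29-fold higher at 2 h and 7.8-fold at 6 h (log2 change 2.96, standard error 0.38, adjusted p = 1.8e-06). Its other 3 probe sets were too dim to be tested. *pqn-63* had 45.9, 11.5 and 8.3 at 0 h, 250.2, 663 and 714 at 2 h, 155, 440.0 and 35.6 at 4 h and 218, 403 and 255 at 6 h. Its signal was at least 7.05-fold higher at 2 h and at least 4.04-fold at 6 h. Its 4 h arrays spread widely, and its call at 4 h was lost without 4 h B. The bound there moved between 1.07- and 3.75-fold, by over 1.5 times without 4 h B or 4 h C. *pqn-62* was lowest at 4 h and highest at 6 h, with 357, 407 and 495 at 0 h, 448, 447 and 336 at 2 h, 241, 145 and 265 at 4 h and 982, 892 and 885 at 6 h at 174830_at. The transcript was 4.37-fold higher at 6 h than at 4 h (log2 change 2.13, standard error 0.29, adjusted p = 1.8e-05). Its call as lower at 4 h than at 0 h was lost without 0 h C or 4 h B, and its other probe set, 185632_at, had no call in any comparison.

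Fewer members fell. *pqn-82* had 728, 414 and 456 at 0 h, 14.5, 13.8 and 11.2 at 2 h, 20, 13.3 and 27.6 at 4 h and 14, 8.4 and 14.1 at 6 h. It exceeded the reference level on its 0 h arrays alone, so it met the filter only through the group in which it was high. After 0 h it lay below that level on every array, at least 7.4-fold lower at 2, 4 and 6 h (log2 change -5.3, standard error 0.89, adjusted p = 9.8e-05 for 2 h). The adjusted p and the calls of *pqn-82* as lower are therefore not taken as support beyond its signals. *pqn-52* at 173516_at had 3175, 3399 and 3606 at 0 h, 164, 325 and 326 at 2 h, 123, 201 and 219 at 4 h and 386, 633 and 509 at 6 h. Expression was 13.1-fold lower at 2 h, 19.3-fold at 4 h and 6.78-fold at 6 h, and regained part of its signal from 4 to 6 h (2.85-fold higher). The probe set 186438_s_at gave at least 15.5-fold at 2 h and 8.45-fold at 6 h, and the dim 185517_at had no call.

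*pqn-59*, the relative of UBAP2L, was bright through 4 h and lowest at 6 h. At 173018_s_at it had 11911, 7059 and 10052 at 0 h, 9851, 11574 and 12869 at 2 h, 6339.5, 7643 and 9921 at 4 h and 2726, 3888 and 1514 at 6 h. Its 0, 2 and 4 h arrays overlapped, and all 6 h arrays lay below them. It was 3.75-fold lower at 6 h (log2 change -1.91, standard error 0.29, adjusted p = 2.9e-05), and 178212_s_at gave 4.34-fold. At 178212_s_at it was already called lower at 4 h than at 2 h (log2 change -0.97, adjusted p = 0.019), a call that was lost without 2 h A, 2 h C, 4 h A or 4 h B. All 4 probe sets of *pqn-83* were called lower at 4 h, by 2.3- to 4.61-fold, and at 6 h. At 174064_s_at it had 649, 957 and 887 at 0 h, 610.1, 598 and 743 at 2 h, 372, 409 and 294 at 4 h and 316, 242 and 272 at 6 h, 2.98-fold lower at 6 h. At 194174_x_at the 5.02-fold fall at 6 h was 2.98- to 6.84-fold with each array left out in turn and moved by over 1.5 times without 6 h A. *pqn-75* had 392, 174 and 374 at 0 h, 659, 392 and 456 at 2 h, 45.1, 158 and 226 at 4 h and 70.2, 61.9 and 15.3 at 6 h. Its signal was at least 4.21-fold lower at 6 h than at 0 h and at least 7.01-fold lower than at 2 h.

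**Figure D4:**
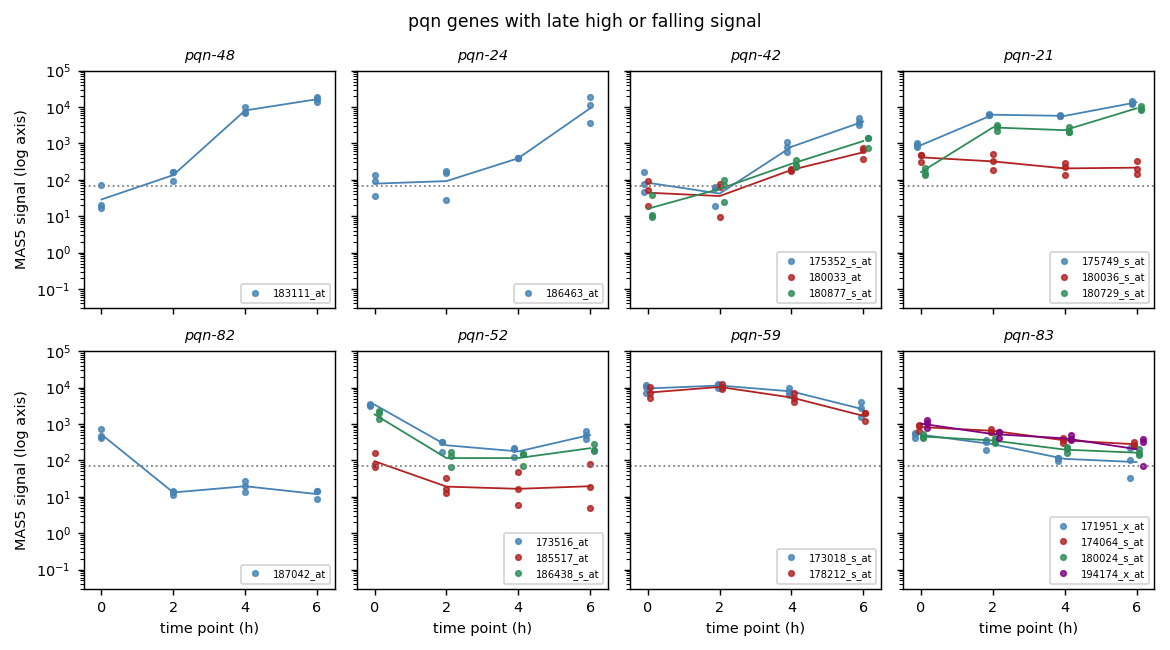
MAS5 signal (log axis) at 0, 2, 4 and 6 h for *pqn* genes that were bright late (top row) or fell (bottom row), with a point for each array, a line through means taken on the log2 scale, a colour for each probe set and a dotted line at the reference level of 69.7. *pqn-48* climbs from 4 h and *pqn-24* at 6 h, while *pqn-82* and *pqn-52* lose most of their signal by 2 h and *pqn-59* after 4 h.

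Some members that were bright on every array changed little. *pqn-53* at 194183_x_at had 25338, 28897 and 40372 at 0 h, 37894, 40507 and 41829 at 2 h, 40439, 43316 and 33517 at 4 h and 54055, 49819 and 32542 at 6 h and no call in any comparison. At 176634_s_at it was 1.93-fold higher at 2 h and 1.72-fold at 6 h, close to the threshold. The 2 h call ended without 2 h C, and the 6 h call ended when arrays were scaled to the same median and without 0 h B, 6 h A or 6 h B. *pqn-70* at 184466_s_at had 17128, 14354 and 15018 at 0 h, 9492, 11379 and 12509 at 2 h, 14287, 19987 and 13963 at 4 h and 10628, 11757 and 14002 at 6 h, and no call. In all, 32 tested members, bright and dim, had no call in any of the 6 comparisons, a count not taken over all tested probe sets. They read 23 genes, of which some, such as *pqn-21* and *pqn-52*, were called at other probe sets. All 5 probe sets of *pqn-36* and all 3 of *pqn-72* were among the 32. A further 8 members were not tested, namely *abu-3*, *pqn-29*, *pqn-94*, 1 probe set each of *pqn-18* and *pqn-27*, and 3 of *pqn-41*. At 177675_at *pqn-18* was near the reference level until 6 h, with 262, 133 and 118 at 6 h, and its log2 change against 0 h was 2.33 (adjusted p = 0.083).

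Calls as higher at 2 h were found at every kind of probe set ending, most often and with the largest median change at _x_at. Shares by ending over all tested probe sets were not counted. At 2 h against 0 h, 17 of the 40 tested probe sets with the plain ending (_at) were called higher and 3 lower, beside 14 higher and 1 lower of 34 with the ending _s_at and 13 higher and none lower of 20 with the ending _x_at. Their median log2 changes were 0.8, 0.4 and 4.9. Of the 20 genes with more than 1 tested probe set of their own, 6 were called at some of them at 2 h and 14 had the same outcome at all. Among these 14, *abu-8*, *abu-10*, *abu-14*, *pqn-13*, *pqn-15* and *pqn-39* were called higher at all. The rest of the 14 had no call at any.

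Since the *abu* genes are named for the unfolded protein response, a chosen list of known genes of that response, not a full set, was set beside them. Of 25 listed, 23 were tested, each at 1 probe set. At 2 h against 0 h, when 18 of 20 probe sets that read an *abu* gene were higher, 3 of the 23 were higher and 4 lower, beside 15.5% and 9.55% of all tested probe sets, with a median log2 change of 0.28. The 3 that rose were *sel-11*, a ubiquitin ligase of the endoplasmic reticulum (log2 change 1.77), the transcription factor gene *xbp-1* (0.9) and the sensor kinase gene *ire-1* (0.88). Those that fell were *ckb-2*, a choline kinase (-2.63), the chaperone gene *hsp-4*, the worm BiP (-1.74), *atf-4* (-1.08) and *pdi-6*, a protein disulfide isomerase (-0.8). At 4 h 12 of the 23 were higher and 1 lower, beside 17.1% and 11.9% of all tested probe sets, at a median of 1.16. At 6 h 16 were higher and 1 lower, beside 21.7% and 15.6%, at a median of 1.38. At 6 h *atf-4* reached 3.8, *xbp-1* 3.36 and *ckb-2* 2.5, while *cnx-1*, which encodes calnexin, was lower at -1.71. From 2 to 4 h 10 of these genes rose and none fell, beside 6.9% and 7.35% of all tested probe sets, where 15 of the 20 *abu* probe sets fell and none rose. The difference between the sets was not tested.

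**Figure D5:**
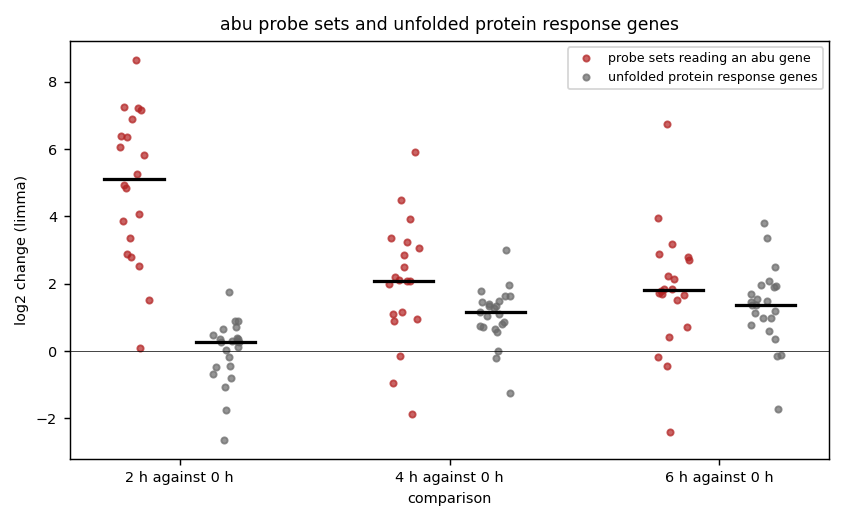
Log2 change from limma at 2, 4 and 6 h against 0 h for the 20 tested probe sets that read an *abu* gene (red) and 23 genes of the unfolded protein response (grey), with a point for each and a black bar at each median. The *abu* median is 5.11 at 2 h and 1.82 at 6 h, and that of the unfolded protein response genes is 0.28 at 2 h and 1.38 at 6 h.

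Among 10 other genes of apical matrices and moulting, 1 was higher at 2 h and none lower, near the 15.5% and 9.55% of all tested probe sets, at a median log2 change of 0.14. The gene called was *let-653*, which encodes a protein of luminal matrices (log2 change 2.35). At 6 h *noah-1* (1.13) and *nhr-25* (1.44) were higher and *fbn-1* lower (-4.79). Markers of the pharynx, where several *abu* proteins are found in the worm, gave 1 higher and 2 lower of 12 at 2 h, beside the same shares, and 5 higher and 1 lower at 6 h, beside 21.7% and 15.6%. Their summed signal was 1827 to 1952 at 0 h, 2589 to 2814 at 2 h, 3744 to 4442 at 4 h and 11337 to 36436 at 6 h. At 6 h *ceh-34* alone gave 6672 to 30995, and the study lists this gene as enriched in embryonic muscle cells. It is also 1 of the 5 called higher at 6 h, so neither that count nor the sum can be read for the pharynx alone. The others called higher at 6 h were *tbx-2* (log2 change 5.33), *ceh-22* (3.98), *hlh-6* (3.16) and *tnc-2* (2.15). The gene called lower was *tni-4* (-3.86), which exceeded the reference level only on its 0 h arrays. At 2 h 4 of the 12 lay below the reference level on all arrays. Of the myosins used in pharyngeal muscle, *myo-1* and *myo-2* were not called at 2, 4 or 6 h against 0 h. All 12 markers of body wall muscle, the fate that HLH-1 drives, were higher at 4 and 6 h, beside 17.1% and 21.7% of all tested probe sets. At 2 h 3 of them were higher, beside 15.5%. Each of these counts includes *hlh-1* itself, the gene that the pulse was set up to induce, so its rise adds no support. Of 10 epidermis markers, 2 were higher and 1 lower (*elt-1*, log2 change -3.72) at 2 h, beside 15.5% and 9.55% of all tested probe sets. The sum of these markers, 15833 to 23035 at 2 h and 4123 to 5871 at 0 h, was mostly *sqt-3* and *rol-6*, the collagen genes that were called. Beside the same shares, 1 of 8 tested intestine markers was higher (*cpr-6*, log2 change 4.02) and 3 were lower (*end-1*, *end-3* and *elt-7*) at 2 h. The list summed to 2433 to 4068 at 2 h and 32911 to 42763 at 0 h, of which *end-1* alone was 76.8 to 315 at 2 h and 25499 to 33397 at 0 h. Again beside these shares, 1 of 10 neuron markers was higher (*unc-47*, log2 change 2.97) and none lower at 2 h. Their sum of 5631 to 7534 at 2 h and 7856 to 10519 at 0 h was mostly *snb-1*, which was not called. These sums add probe sets of unlike brightness, so each follows its brightest genes. Whether any of these cell types had a part in the changes of *abu* and *pqn* transcripts was not tested.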

How the data were processed

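RNA from about 80 embryos a sample was reverse transcribed, amplified (20 PCR cycles) and read on Affymetrix *C. elegans* arrays. The deposited intensity values are linear MAS5 signals that the authors had scaled array by array, with a MAS5 version not given in the sources here. Log2 signals of all 12 arrays were fitted in limma 3.58.1 under R 4.3.3, with time point as the group, a variance trend over mean signal and robust eBayes. The 6 contrasts between time points were taken, and p values were Benjamini-Hochberg adjusted over 18264 probe sets. Of 22625 probe sets, 77 controls were left out. Symbols came from the platform annotation and neighbours from RefSeq (WBcel235).

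The members and the gene lists were chosen with earlier results of these data known. Named members are every *abu* probe set, up to 8 largest rises and 8 largest falls of *pqn* probe sets at 6 h and up to 3 at 2 and 4 h, *pqn-5* (annotated as *abu-15*), *pqn-18*, *pqn-24*, *pqn-41*, *pqn-42*, *pqn-47*, *pqn-48*, *pqn-54*, *pqn-59*, *pqn-63*, *pqn-85* and *pqn-90*, the 5 with the highest mean log2 signal, and other probe sets of genes so named. No member probe set carried the symbols *pqn-47* or *pqn-85*. Members named beyond these were chosen after their values were seen. Protein sequences were not used here. Alternatives were other scalings, filters and fits, and each array left out in turn. The number of arrays limits the precision. Arrays of the same letter did not deviate together (r of -0.03 to 0.03 over 18 pairs).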

Additional observations from a re-analysis of the deposited data

How the results depend on the processing

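The 12 counts of members called kept to within 1.5 times of their value under the other scalings, filters and fits, except that 6 members, and not 10, were higher at 6 h against 2 h with arrays scaled to the same median. With an array left out, members higher at 4 h against 2 h numbered 2 (without 4 h A) to 4, beside 4 with all arrays. The other 11 counts stayed within 1.5 times, and those at 2 h against 0 h were 40 to 43 higher and 4 to 6 lower. Changes of sign at 6 h against 0 h arose only at uncalled probe sets. *pqn-70* at 184458_s_at had a log2 change of -0.1, 0.03 after quantile normalization and -0.2 to 0.08 with an array left out. With an array left out, *abu-12* ran between -0.61 and 0.15, *abu-4* at 187888_s_at between -1.44 and 0.58, and *abu-10* at 188148_at between -0.8 and 1.71. The replicate letters pair nothing in the labels. A replicate block gave 42 higher and 4 lower at 2 h, 36 and 8 at 4 h and 38 and 12 at 6 h against 0 h, so it moved no count by over 1.5 times. It ended the calls of *abu-2* and of *pqn-42* at 180877_s_at at 2 h against 0 h. The causes were not tested. Signals near the reference level limit the folds of dim members to bounds.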
